A study of Oryza sativa with 12 samples.

Results

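A set of 5 rice leaf genes was described across both varieties of the study, namely OsRMC (Os04g0659300), Sci1 (Os12g0437800), OsOxO3 (Os03g0693900), OsUCL35 (Os11g0428800) and OsEnS-107 (Os07g0529000). They were picked by name for a large rise in salt-alkali stressed leaves of the variety LJ, and they are 5 of the 13674 genes that the deposited tables hold. Leaf RNA was sequenced from 4 groups of 3 libraries. These were stressed LJ31 leaves, control LJ31 leaves, stressed QJ10 leaves and control QJ10 leaves (LJ and QJ from here on). The stress was a bicarbonate salt-alkali treatment at 200 mmol/L. The labels state neither the age of the plants nor how long they were treated. Levels are in FPKM, which counts fragments per length of transcript and per size of the library. The names of both stress tables and their column headers disagree on the variety, so the variety given beside every value rests on the headers.

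Sodium bicarbonate stress exposes a plant to sodium and to high pH together. Several of the genes belong to families of the cell wall and the space outside the cell. OsRMC (root meander curling) is a secreted cysteine-rich protein with DUF26 domains, known in rice for its part in jasmonate-related root curling and as a negative regulator of salt tolerance. Oxalate oxidases such as OsOxO3 are wall-bound germins that turn oxalate and oxygen into carbon dioxide and hydrogen peroxide. Uclacyanin-like proteins such as OsUCL35 are phytocyanins, copper-binding proteins of the cell surface. Sci1 is placed with the proteinase inhibitors by its symbol alone, and no role is given for OsEnS-107, since the files hold no description of either gene.

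OsRMC was among the most abundant transcripts of stressed LJ leaves. It had 5066.6, 5146.04 and 4962.11 FPKM in stressed LJ libraries, against 15.07, 16.16 and 12.23 FPKM in control LJ libraries. In QJ it had 316.97, 307.47 and 328.69 FPKM in stressed libraries, against 76.46, 74.42 and 75.07 FPKM in controls. The stressed LJ libraries were thus the highest and the control LJ libraries the lowest, with no overlap between any of the groups. By mean FPKM OsRMC held place 4 of 11320 listed genes in stressed LJ leaves, place 3099 of 11440 in control LJ leaves, place 139 of 8940 in stressed QJ leaves and place 719 of 10256 in control QJ leaves. Its share of the summed listed FPKM was 0.950% to 0.987% in stressed LJ libraries, against 0.00325% to 0.00430% in control LJ libraries. In QJ the share was 0.102% to 0.108% in stressed libraries, against 0.0239% to 0.0245% in controls. The listed sum was 521586 to 522465 FPKM in stressed LJ and 375808 to 376025 FPKM in control LJ libraries. In QJ it was 302273 to 304097 FPKM in stressed and 310974 to 312214 FPKM in control libraries. As the sums cover different genes in each group, the shares do not compare exactly between groups.

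Sci1 had 1832.83, 1800.03 and 1810.97 FPKM in stressed LJ libraries, against 11.05, 15.83 and 15.4 FPKM in control LJ libraries. Its QJ values were 63.85, 71 and 60.17 FPKM in stressed libraries, against 30.16, 37.57 and 31.38 FPKM in controls. The order of the groups was that of OsRMC, again without overlap.

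OsOxO3 had 407.93, 419.34 and 414.72 FPKM in stressed LJ libraries, against 2.42, 2.89 and 2.35 FPKM in control LJ libraries. Stressed QJ libraries had 3.26, 3.94 and 4.16 FPKM, while the gene was listed at 0 in all 3 QJ controls. Stressed QJ leaves therefore lay just above control LJ leaves, without overlap, and far under stressed LJ leaves.

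OsUCL35 had 57.5, 62.02 and 64.51 FPKM in stressed LJ libraries and was listed at 0 in all 3 control LJ libraries. In QJ it had 0.67, 0.94 and 0.66 FPKM in stressed libraries and was listed at 0 in all 3 controls. No ratio of mean FPKM is given against a group listed at 0.

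OsEnS-107 had 555.07, 570.33 and 565.47 FPKM in stressed LJ libraries, against 0.75, 0.79 and 0.88 FPKM in control LJ libraries. In QJ it had 159.83, 157.94 and 170.17 FPKM in stressed libraries, against 7.93, 8.54 and 6.98 FPKM in controls. It was the gene of the set that came nearest to its LJ level in stressed QJ leaves.

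**Figure D1:**
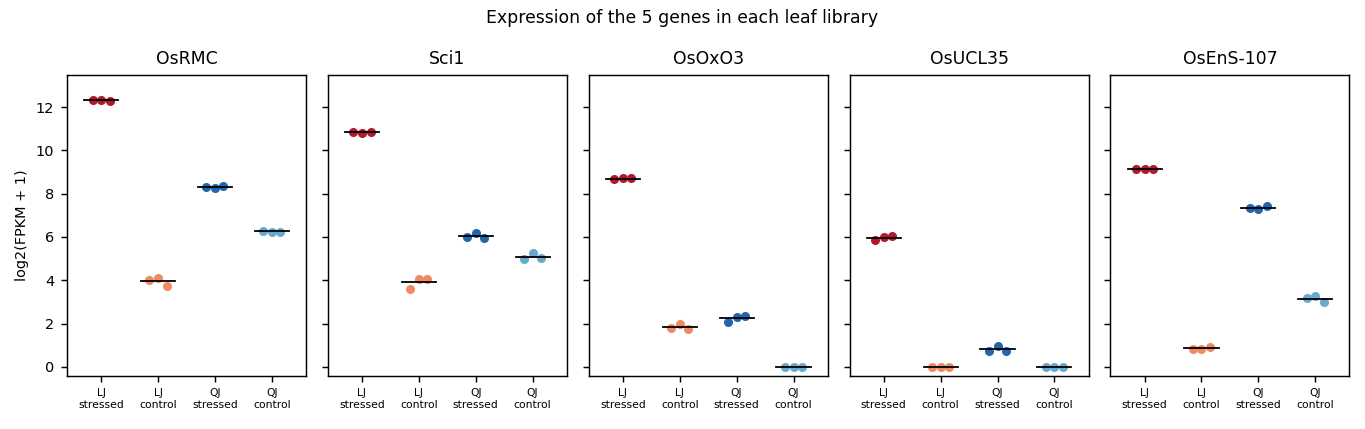
Log2(FPKM + 1) of the 5 genes in every library, by group, with stressed leaves left of the controls of the same variety. Points are single libraries and lines are the group means on this scale, and each gene's stressed LJ libraries lie above all of its other libraries.

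The rise in LJ chose these genes, so it is a description and carries no test. As ratios of mean FPKM, stressed over control LJ leaves, OsEnS-107 stood at 699, OsRMC at 349, OsOxO3 at 162 and Sci1 at 129. On the log2(FPKM + 1) scale, which understates the change of low genes, the LJ differences were 8.36 for OsRMC, 8.29 for OsEnS-107, 6.93 for Sci1 and 6.87 for OsOxO3. Among the 7792 genes that reached 1 FPKM in 3 or more of the 6 LJ libraries, OsRMC held place 1 and OsEnS-107 place 2 by this difference. Their order turned with a pseudocount of 0.1, where OsEnS-107 stood at 9.28 and OsRMC at 8.45. It also turned with one of 0.5, at 8.76 and 8.41, and with quantile normalization, at 8.48 and 8.23. With control LJ replicate 3 left out the order turned as well. OsRMC then stood at 8.25, while OsEnS-107 stood at 8.27 or more whichever library was left out. Sci1 held place 10, OsOxO3 place 11 and OsUCL35 place 27, the last set by the pseudocount since its controls were listed at 0. The genes between them included the late embryogenesis abundant gene OsLEA3-1 at 8.22 and the actin-depolymerizing factor gene OsADF3 at 7.93. Of 7326 genes with a control LJ mean of at least 1 FPKM, 12 had a ratio of at least 100, and OsRMC, Sci1 and OsOxO3 were among them. Of 276 genes listed at 0 in every control LJ library, OsUCL35 was one of 8 with at least 10 FPKM in every stressed LJ library. In that comparison 43.3% of all tested genes passed as higher under stress and 49.3% as lower, and 39.8% of genes listed in all 6 libraries had every stressed library above every control. This is a background from which nothing is read here for genes chosen by the same contrast. The deposited tables list only genes that passed the authors' own threshold in some comparison, so such backgrounds are high.

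The libraries within a group lay close together. In stressed LJ leaves the coefficient of variation was 1.82% for OsRMC, 0.920% for Sci1, 1.39% for OsOxO3, 5.79% for OsUCL35 and 1.38% for OsEnS-107. In stressed QJ leaves it ran from 3.35% for OsRMC to 21.0% for OsUCL35.

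The stress response in QJ was not used to choose the genes and was tested with limma on log2(FPKM + 1) over 5400 genes. OsRMC, Sci1 and OsEnS-107 reached 1 FPKM in both groups, and these 3 of 5 were higher in stressed QJ leaves at a Benjamini-Hochberg adjusted p under 0.05. The background was 46.2% of all tested genes passing as higher and 40.9% as lower. These genes also had every stressed QJ library above every QJ control, as did 42.5% of the genes listed in all 6 QJ libraries. OsOxO3 and OsUCL35 were listed at 0 in every QJ control, so only a rise could be seen and they are not counted. OsEnS-107 rose 20.8-fold by mean FPKM, with 163 ± 6.58 FPKM in stressed QJ leaves and 7.82 ± 0.786 FPKM in control QJ leaves (SD, n = 3 each). Its log2 difference was 4.22 with a standard error of 0.0700 (limma, adjusted p = 5.16e-10). OsRMC rose 4.22-fold, with 318 ± 10.6 FPKM in stressed QJ leaves and 75.3 ± 1.04 FPKM in control QJ leaves, a log2 difference of 2.06 with a standard error of 0.0320 (limma, adjusted p = 3.75e-10). Sci1 rose 1.97-fold, with 65.0 ± 5.51 FPKM in stressed QJ leaves and 33.0 ± 3.97 FPKM in control QJ leaves, a log2 difference of 0.96 with a standard error of 0.0911 (limma, adjusted p = 1.69e-05). OsOxO3 entered the fit only through its stressed QJ libraries, so the filter fixed its direction, and neither a test nor a fold is given for it.

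OsUCL35 stayed under 1 FPKM in every QJ library and did not enter that test. It was listed at 0 in every QJ control, so only a rise could be seen, and no test is given for it. By the size of the rise in QJ, OsEnS-107 held place 41 of 5400, OsRMC place 374 and Sci1 place 1654. The authors' deposited table of stress in QJ lists OsRMC at a log2 fold change of 1.93, OsEnS-107 at 4.21, OsOxO3 at 6.89 and OsUCL35 at 4.85, and does not list Sci1. The authors' deposited table of stress in LJ lists all 5, from 7.12 for Sci1 to 11.6 for OsUCL35. Their values for OsUCL35 in both varieties and for OsOxO3 in QJ are against controls listed at 0. The size of these depends on how a 0 was handled, which is not known, so they are not ranked against the others.

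**Figure D2:**
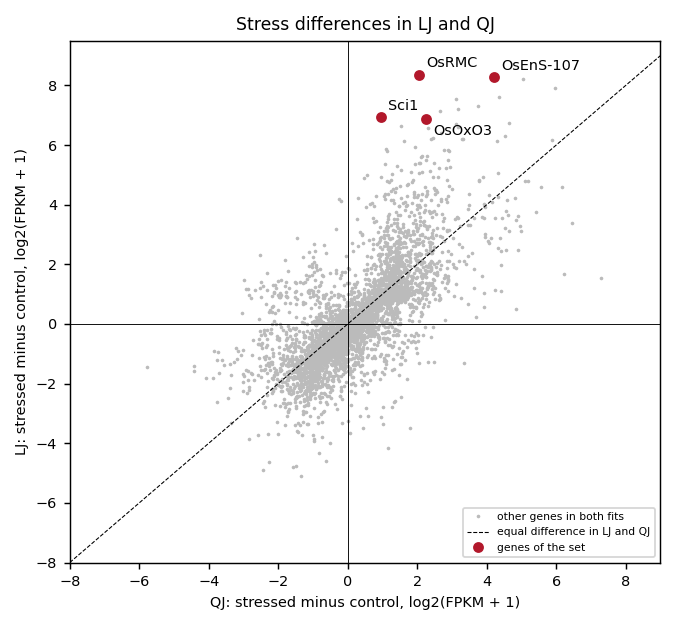
Log2 difference between stressed and control leaves in LJ against that in QJ, on the log2(FPKM + 1) scale, for the genes in both fits. The 4 chosen genes in both fits are marked, with OsRMC at 8.36 in LJ and 2.06 in QJ. Each lies above the dashed line of equal differences, which is a description, as a large rise in LJ chose them. The filter fixed the direction of OsOxO3 in QJ and of OsEnS-107 in LJ.

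Between varieties the same genes stood in a different order under control and stress, and as the LJ libraries entered the choice this is a description with no test. Among stressed leaves, mean FPKM was higher in LJ than in QJ by 109 times for OsOxO3, 81.1 times for OsUCL35, 27.9 times for Sci1, 15.9 times for OsRMC and 3.47 times for OsEnS-107. Among control leaves, 3 of the genes were lower in LJ. OsRMC had 14.5 ± 2.03 FPKM in control LJ leaves and 75.3 ± 1.04 FPKM in control QJ leaves, a ratio of 0.192. The ratio was 0.427 for Sci1 and 0.103 for OsEnS-107. OsOxO3 had 2.55 ± 0.294 FPKM in control LJ leaves and was listed at 0 in control QJ leaves, and OsUCL35 was listed at 0 in both.

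OsRMC, Sci1 and OsEnS-107 therefore shared 1 order of groups, from stressed LJ through stressed QJ and control QJ to control LJ, with no overlap between neighbours. Of the 5534 genes with values in all 12 libraries, 3.13% had that order without overlap. OsOxO3 had the order from stressed LJ through stressed QJ and control LJ to control QJ, which 4.5% of those genes had. The highest group mean fell in stressed LJ leaves for 1526 of the 5534 genes.

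Levels of marker genes moved with these groups. The summed FPKM of 5 leaf genes for light-harvesting proteins and the Rubisco small subunit, of 6 on the list, was 301 to 311 in stressed LJ libraries, against 3127 to 3161 in control LJ libraries. In QJ it was 980 to 999 in stressed libraries, against 5085 to 5240 in controls. The summed FPKM of the leaf senescence genes SGR, a chlorophyll breakdown gene, and NAC58, a transcription factor gene, was 624 to 643 in stressed LJ libraries, against 58.4 to 59.4 in control LJ libraries, and 252 to 253 in stressed QJ libraries, against 58.3 to 58.4 in control QJ libraries. Anther and floral genes, 5 of 9 on the list, summed to 27.4 to 31.4 FPKM in stressed LJ libraries, against 293 to 307 in control LJ libraries, and to 14.6 to 16.2 in stressed QJ libraries, against 8.37 to 9.26 in control QJ libraries. In 3 of the groups SPW1 made up most of that sum, with a mean of 25.3 FPKM in stressed LJ leaves, 15.1 FPKM in stressed QJ leaves and 8.44 FPKM in control QJ leaves. RTS was listed at 0 in stressed LJ leaves and OSC6 in stressed QJ leaves, and RTS, OsMADS7 and OsMADS24 were listed at 0 in control QJ leaves. In control LJ leaves the mean was 122 FPKM for RTS, 154 for OSC6, 38.5 for OsMADS7 and 36.1 for OsMADS24. RTS has no value in stressed QJ leaves and is not in the sum. The part of these differences in the results was not tested. In bulk leaf samples fewer cells of a type and less RNA per cell cannot be told apart.

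OsOxO3 has neighbours of the same name stem whose IDs run on from its own, and they were also far higher in stressed LJ leaves. OsOxO1 (Os03g0693700) had 115.98, 113.31 and 103.31 FPKM in stressed LJ libraries, against 0.08, 0.16 and 0 FPKM in control LJ libraries. In QJ it had 8.22, 8.7 and 6.39 FPKM in stressed libraries and was listed at 0 in the controls. The files give the name Osoxo4 to both Os03g0693800 and Os03g0694000. Os03g0693800 was low, with 4.04, 5.15 and 3.53 FPKM in stressed LJ libraries, against 0.15, 0 and 0 FPKM in control LJ libraries. Both OsOxO1 and Os03g0693800 passed the filter through stressed libraries alone, so no test is given for them.

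The highest neighbour was Os03g0694000. It had 329 ± 3.77 FPKM in stressed LJ leaves and 1.34 ± 0.0950 FPKM in control LJ leaves (SD, n = 3 each), a log2 difference of 7.14 (limma, adjusted p = 1.09e-11). In QJ it had 104 ± 2.59 FPKM in stressed leaves and 15.6 ± 1.60 FPKM in control leaves, a log2 difference of 2.67 (limma, adjusted p = 5.82e-09). FPKM is scaled to length, so levels may be set against each other between genes. The ratio of OsOxO3 to Os03g0694000 was 1.26 ± 0.0231 in stressed LJ leaves, against 1.90 ± 0.131 in control LJ leaves. It was 0.0364 ± 0.00379 in stressed QJ leaves, while OsOxO3 was listed at 0 in control QJ leaves. OsOxO3 thus made up 48.3% of the summed FPKM of the 4 genes in stressed LJ leaves and 3.25% in stressed QJ leaves. These genes are close copies, and neither labels nor headers say how reads shared between copies were counted, so the split among them is uncertain.

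**Figure D3:**
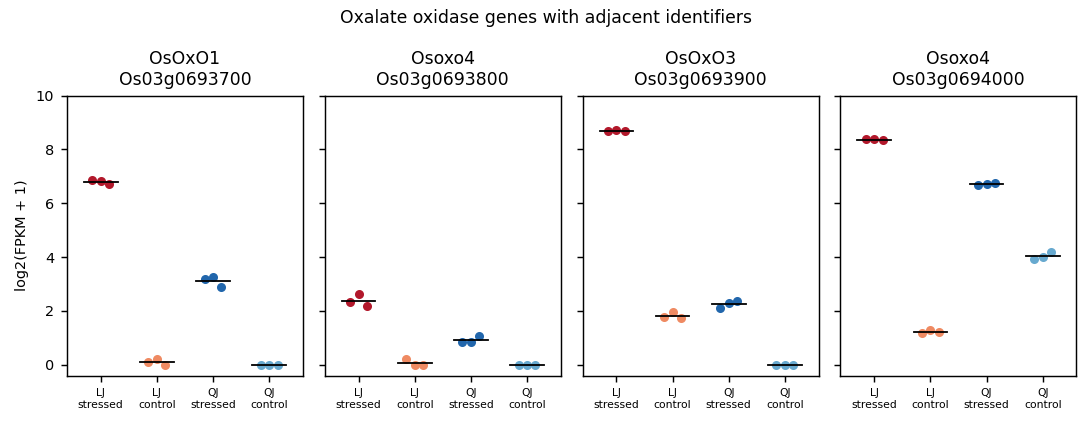
Log2(FPKM + 1) of OsOxO3 and its 3 neighbours of the same name stem in every library, by group. Points are single libraries and lines are the group means on this scale. OsOxO3 and Os03g0694000 average 414 and 329 FPKM in stressed LJ leaves, while in stressed QJ leaves OsOxO3 is at 3.79 and Os03g0694000 at 104 FPKM.

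Related genes were taken from 6 lists, with the 5 chosen genes left out. Over all tested genes the median log2 difference was -0.19 in LJ and 0.09 in QJ. With 92.6% of tested genes passing in LJ and 87% in QJ in either direction, the counts that follow are read only as directions. A gene under 1 FPKM in every library of 1 group could pass the filter only through the other, which fixed its direction, and such genes are counted beside each list that holds any.

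Of the 8 other proteinase inhibitor genes in the tables, all 8 were tested in LJ, where 6 rose and 2 fell with a median log2 difference of 1.24. In QJ 5 were tested, of which 4 rose and 1 fell, with a median of 1.61. The chymotrypsin inhibitor gene OCPI2 reached a level close to that of OsRMC, with 5034 ± 68.5 FPKM in stressed LJ leaves and 247 ± 6.30 FPKM in control LJ leaves (limma, adjusted p = 3.52e-12). It had 1226 ± 23.7 FPKM in stressed QJ leaves and 325 ± 11.0 FPKM in control QJ leaves (limma, adjusted p = 3.27e-10). The Bowman-Birk inhibitor gene RBBI3-1 rose 2.35-fold in LJ and 2.62-fold in QJ on the log2(FPKM + 1) scale. RBBI2-2 fell to 80.2 ± 2.07 FPKM in stressed LJ leaves, against 201 ± 1.65 FPKM in control LJ leaves (limma, adjusted p = 1.88e-09).

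Germin-like and oxalate oxidase genes, 30 besides OsOxO3, mostly rose in LJ and mostly fell in QJ, but the genes tested were not the same. Only 7 were tested in both varieties, and of these GLP12-3 alone had calls in opposite directions. The others of the 7 moved the same way in both. The difference between varieties was not tested. In LJ 20 were tested, of which 14 rose and 6 fell, with a median of 1.47. In QJ 14 were tested, of which 5 rose and 9 fell, with a median of -1.05. Among those with at least 1 library at 1 FPKM or more in each group, 9 rose and 5 fell in LJ and 2 rose and 6 fell in QJ. GLP8-7 had 213 ± 5.42 FPKM in stressed LJ leaves and 79.0 ± 0.826 FPKM in control LJ leaves. GLP8-12 is listed for control leaves only, with 600.3 ± 9.51 FPKM in LJ and 1794 ± 14.5 FPKM in QJ (SD, n = 3 each).

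Phytocyanin genes mostly fell, unlike OsUCL35. Of 31 others in the tables, 23 were tested in LJ, where 6 rose, 16 fell and 1 did not pass, with a median of -1.25. In QJ 13 were tested, of which 3 rose, 7 fell and 3 did not pass, with a median of -0.88. Among those with at least 1 library at 1 FPKM or more in each group, 6 rose and 11 fell in LJ and 2 rose and 6 fell in QJ. OsENODL18 had the largest rise of the list in both varieties and was named after its values were seen, so no test is given for it. It had 200.5 ± 7.28 FPKM in stressed LJ leaves and 1.55 ± 0.212 FPKM in control LJ leaves. In QJ it had 116 ± 1.66 FPKM in stressed leaves and 4.11 ± 0.389 FPKM in control leaves. The plastocyanin gene OsPC, an electron carrier of photosynthesis and no uclacyanin, fell to 458 ± 4.60 FPKM in stressed LJ leaves, against 2161 ± 27.7 FPKM in control LJ leaves (limma, adjusted p = 1.38e-11). OsUCL24 had 545 ± 4.84 FPKM in stressed LJ leaves and 261 ± 8.16 FPKM in control LJ leaves. OsUCL29 fell to 80.1 ± 2.15 FPKM in stressed QJ leaves, against 683 ± 18.5 FPKM in control QJ leaves (limma, adjusted p = 4.97e-11).

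The list for OsRMC held 2 other genes, and both rose in LJ. OsDUF26 rose 1.94-fold (limma, adjusted p = 6.93e-07) and the receptor-like kinase gene CRK10 rose 1.97-fold (limma, adjusted p = 5.30e-06), on the log2(FPKM + 1) scale. Neither was tested in QJ.

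Of the 21 other genes named OsEnS, 11 were tested in LJ and 10 in QJ. Of these, 5 in LJ and 7 in QJ passed the filter only through stressed libraries. The others, 6 in LJ and 3 in QJ, rose. Without the filter 15 rose and 1 fell in LJ, and 14 rose and 1 fell in QJ. OsEnS-53 had 66.6 ± 2.21 FPKM in stressed LJ leaves and 21.0 ± 0.915 FPKM in control LJ leaves. It had 109.8 ± 5.09 FPKM in stressed QJ leaves and 6.57 ± 0.864 FPKM in control QJ leaves, a 14.7-fold rise on the log2(FPKM + 1) scale (limma, adjusted p = 2.47e-09). OsEnS-58 rose 9.51-fold and OsEnS-40 rose 8.71-fold in LJ on that scale.

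The list of the glyoxylate cycle, beta-oxidation and gluconeogenesis held 6 genes, of which 3 were tested in LJ and none in QJ. OsMS1 and KAT2 came into it by the letters of their names alone, neither was tested, and neither is shown to belong to these pathways. The acyl-CoA oxidase genes OsACX4, ACX2 and ACX3, for the first step of peroxisomal beta-oxidation, all rose in LJ. OsACX4 had 216 ± 5.59 FPKM in stressed LJ leaves and 55.2 ± 2.81 FPKM in control LJ leaves (limma, adjusted p = 1.87e-09).

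**Figure D4:**
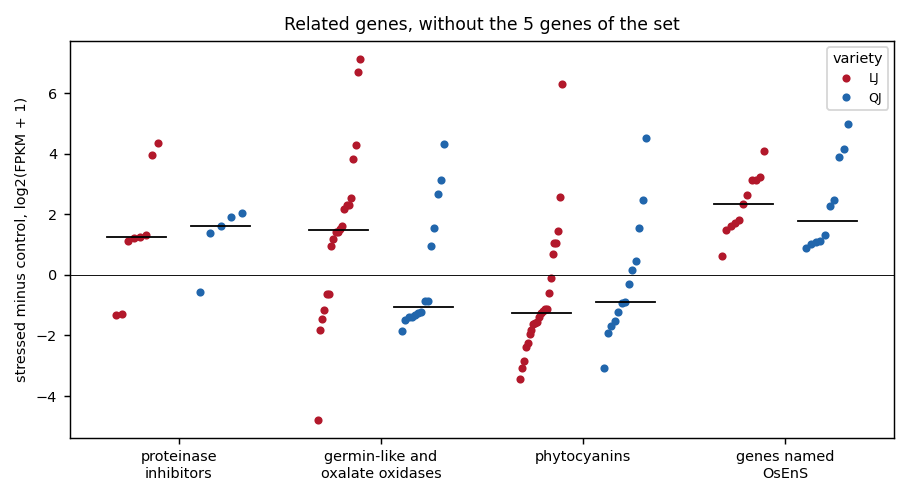
Log2 difference between stressed and control leaves, on the log2(FPKM + 1) scale, for each tested gene of 4 of the related lists in LJ and in QJ, without the 5 chosen genes. Points are genes and lines are the medians. The OsEnS genes lie above 0, where the filter fixed 5 of 11 in LJ and 7 of 10 in QJ, and most phytocyanin genes lie under 0. Of 23 phytocyanin genes in LJ it fixed 5 as falls, and of 13 in QJ it fixed 1 rise and 1 fall. Of 20 germin-like and oxalate oxidase genes in LJ it fixed 5 rises and 1 fall, and of 14 in QJ 3 rises and 3 falls.

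Named genes with the most similar pattern were found by Pearson's r of log2(FPKM + 1) over the 12 libraries, among 3811 genes with a mean of at least 5 FPKM in some group. The 12 points form 4 groups, so r mainly reflects the group means and is a description. For OsRMC they were HPL2 (Os02g0218700) at 0.999, OSJNBa0027J18.15 (Os03g0734300) at 0.998 and OsNLA1 (Os07g0673200) at 0.998. With a pseudocount of 0.1 the values were 0.979, 0.998 and 0.997 in that order. HPL2, which moved most, averaged 0.08 FPKM in control LJ leaves. OSJNBa0027J18.15 averaged 1570 FPKM in stressed LJ leaves and 42.4 FPKM in control LJ leaves, and 316 FPKM in stressed QJ leaves and 109.6 FPKM in control QJ leaves.

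Sci1 was most like the potassium transporter gene OsHAK24 at 0.992, OsABCG11 at 0.991 and the chitinase gene Cht2 at 0.991. For OsOxO3 the nearest were NDR4 at 0.998, the alternative oxidase gene AOX1B at 0.996 and Asr3 at 0.995, and for OsUCL35 OsCHX15 at 0.996, OsGLYI5 at 0.992 and the cytokinin oxidase gene OsCKX1 at 0.991. OsEnS-107 was nearest to the plastid phosphate translocator gene OsPPT3 at 0.999, the chitinase gene Cht4 at 0.998 and OsDjC50 at 0.998. A value of at least 0.99 was reached by 36 genes for OsEnS-107, 16 for OsOxO3, 15 for OsRMC, 8 for OsUCL35 and 5 for Sci1. The places and counts hold for log2(FPKM + 1) alone. Among the genes named as nearest, the lowest r with a pseudocount of 0.1 was 0.956, for OsGLYI5. On untransformed FPKM the lowest was 0.922, for OsPPT3. Among the chosen genes themselves r ran from 0.744 for OsOxO3 and OsEnS-107 to 0.980 for Sci1 and OsUCL35.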

How the data were processed

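Per the labels, total RNA of leaves was sequenced on a NovaSeq X Plus. The deposited values are FPKM per gene and library, rounded to 2 decimals, with the authors' log2 fold changes, linear fold ratios, p-values and adjusted p-values, per the file headers. The aligner, the build, the counting and the statistical test were not given in the sources used here. Each of the 4 tables lists only genes past the authors' threshold, and they were joined into 13674 genes. Values in more than 1 table, 31572 in all, differed in 0 cases. Samples were grouped by title, and columns by header. Reads per library are unknown, so no counting interval is given.

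Limma 3.58.1 in R 4.3.3, with a trended prior, was fitted to log2(FPKM + 1) per variety, keeping genes that reached 1 FPKM in 3 or more of 6 libraries. Tests were two-sided with Benjamini-Hochberg adjustment at 0.05, and were checked on simulated data. All p-values measure only the spread among the libraries, which may be partly technical, as the labels do not say whether plants were pooled. Tables and figures used Python 3.11.15, pandas 2.3.3, numpy 2.4.6 and matplotlib 3.10.9. The members and lists were chosen with earlier results of these data known. Lists were matched by name stems, and named genes were the 3 most abundant of each list, neighbours of OsOxO3 and the 3 most similar genes per member. Some others, such as OsENODL18, were named after their values were seen. Alternatives were other pseudocounts, filters, scalings and priors, only the genes of a comparison's own table, a replicate block and leaving out each library. Same-numbered libraries correlated at -0.0471 to 0.00841 in LJ and -0.0489 to 0.151 in QJ. The best match was with the own number for 0 of 3 libraries in LJ and 1 of 3 in QJ. No clear pairing by number thus showed in the values, but these small deviations cannot exclude that plants were paired.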

Additional observations from a re-analysis of the deposited data

Results flagged for a closer look

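In the related lists 4 genes, chosen after their values were seen, had stressed libraries all above the controls in LJ and all under them in QJ, and 3 of these were tested in both varieties. The other, OsGLP4-1, stayed under 1 FPKM in LJ, with 0.41, 0.9 and 0.82 FPKM in stressed LJ libraries, against 0, 0.08 and 0.08 FPKM in control LJ libraries. In QJ it had 0.09, 0.09 and 0.17 FPKM in stressed libraries, against 1.93, 1.53 and 1.49 FPKM in controls. The difference between the varieties was not tested. As ratios of mean FPKM, stressed over control, the germin-like gene GLP12-3 stood at 2.90 in LJ and 0.282 in QJ. The uclacyanin-like gene OsUCL25 stood at 2.77 in LJ and 0.516 in QJ, and OsUCL26 at 1.70 in LJ and 0.296 in QJ. OsUCL25 was the most abundant of these, with 209 ± 6.85 FPKM in stressed LJ leaves and 75.3 ± 1.57 FPKM in control LJ leaves, and 24.1 ± 1.63 FPKM in stressed QJ leaves and 46.7 ± 0.438 FPKM in control QJ leaves (SD, n = 3 each). The 3 were 1 of 7 germin-like or oxalate oxidase genes and 2 of 10 phytocyanin genes tested in both varieties. Of the 5534 genes with values in all 12 libraries, 1.52% ran from stressed LJ through control LJ and control QJ to stressed QJ without overlap. Other orders of the groups also give opposite directions, and their joint share was not counted. Nothing is therefore read from the number of such genes in the lists.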

How the results depend on the processing

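The calls for OsRMC, Sci1 and OsEnS-107 in QJ kept their direction and stayed past the threshold in each alternative that gave a value. Sci1 had none with only the genes of the QJ table. In QJ, over the alternatives other than leaving out a library, the log2 difference ran from 1.83 to 2.44 for OsRMC, 0.72 to 0.98 for Sci1 and 3.98 to 4.37 for OsEnS-107. Over the same alternatives their limma adjusted p ran from 2.14e-10 to 2.94e-07, 1.12e-05 to 0.000174 and 2.87e-10 to 2.40e-07 in that order of genes. For OsOxO3, listed at 0 in every QJ control, the size of the fitted difference moved with the pseudocount, so no range is given. That gene had no value with a filter at 5 FPKM. In LJ the difference of OsEnS-107 was 8.29 as fitted, and ran from 8.35 to 9.28 over the other pseudocounts and scalings. With a library left out it ran from 8.27 to 8.32, and the LJ difference of OsRMC ran from 8.25 to 8.44. Leaving out each library gave 2425 to 2457 genes higher and 2147 to 2172 lower in QJ, and 3335 to 3346 higher and 3797 to 3816 lower in LJ.

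With a replicate block, 2469 genes were higher and 2195 lower in QJ, and 3368 higher and 3841 lower in LJ, and no call of the chosen genes changed. No clear pairing by number showed in the values. The authors' log2 fold changes differ from log2 ratios of mean FPKM by a median of -0.145 in QJ and 0.142 in LJ.

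In the lists single genes crossed the threshold. The lower germin-like genes in LJ numbered 5 in place of 6 with a pseudocount of 0.1, with no filter, with each other scaling and with no trend, and 5 to 6 with a library left out. The lower phytocyanin genes in LJ numbered 15 with quantile normalization. Some counts moved by over 1.5 times. With a filter at 5 FPKM, 2362 genes were lower in LJ, 3 germin-like genes were higher in QJ and 3 lower in LJ, 10 phytocyanin genes were lower in LJ and 4 OsEnS genes were higher in QJ. This filter leaves fewer genes to test. Without a filter, 1 OsEnS gene was lower in each variety and 1 glyoxylate cycle list gene was lower in QJ. With only the genes of the QJ table, 0 proteinase inhibitor genes were lower there.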
